A study of Mus musculus with 8 samples.

Results

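The genes described here encode the core network proteins of the basement membrane: the laminin chains Lama1, Lama5, Lamb1, Lamb2 and Lamc1, the linker nidogen 1 (Nid1), and the collagen IV chains Col4a1, Col4a2, Col4a3 and Col4a4. They were chosen by name. Their probes are those whose RefSeq accession, without its version, belongs to 1 of the 10 symbols. This gave 14 of 55681 probes on the array, and 9 of the 10 genes were among the 22694 genes tested.

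Nephron progenitors were sorted from C57BL/6 mouse kidneys at embryonic day 15.5 by the enhanced green fluorescent protein (EGFP) of the Six2CreEGFP transgene. The mutant group was Six2CreEGFP+ with floxed Hdac1 and Hdac2 alleles (HDAC1&2f/f), and the wildtype group was Six2CreEGFP+ with unfloxed alleles (HDAC1&2+/+), so that both groups carried the Cre and EGFP. Six2 drives Cre in the cap mesenchyme, and descendants of these cells keep a recombined allele. Each of the 8 arrays compared 1 pool (4 wildtype and 4 mutant pools, labelled with Cy5) with RNA of wildtype pool 1 (Cy3), and each value below is a log2 ratio of Cy5 over Cy3 unless stated otherwise. Within a group, the arrays of pools 3 and 4 were as alike as repeated measurements of one RNA, so their mean served as 1 sample, which left 3 samples per group. The sources used here do not say how many animals made up a pool, so p-values measure the spread between these samples.

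Basement membranes are sheets of extracellular matrix under epithelia and around vessels. Laminins are heterotrimers of an alpha, a beta and a gamma chain that polymerize at the cell surface, and collagen IV, itself a trimer of alpha chains, forms a second, covalently crosslinked network that nidogen and perlecan join to the laminin. In the kidney, laminin with the alpha 1 chain accompanies the conversion of mesenchyme into epithelium. As the glomerulus matures, laminin alpha 5 and beta 2 replace alpha 1 and beta 1 in its basement membrane. Collagen IV made of alpha 3, alpha 4 and alpha 5 chains likewise replaces the network of alpha 1 and alpha 2 chains. Col4a1 and Col4a2 lie head to head and are transcribed away from a shared promoter region, and Col4a3 and Col4a4 are arranged in the same way.

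The promoter windows of Col4a1 and Col4a2 are shown because these 2 genes had nearly the same profile over the samples. RefSeq promoter windows (build GRCm38.p6, 250 bases before to 50 after a start) were found for 7 of the 10 genes. The Col4a1 window is chr8:11312777-11313076 on the minus strand and the Col4a2 window chr8:11312555-11312854 on the plus strand. Capitals mark the 78 bases that both windows hold, read in opposite directions.
Col4a1: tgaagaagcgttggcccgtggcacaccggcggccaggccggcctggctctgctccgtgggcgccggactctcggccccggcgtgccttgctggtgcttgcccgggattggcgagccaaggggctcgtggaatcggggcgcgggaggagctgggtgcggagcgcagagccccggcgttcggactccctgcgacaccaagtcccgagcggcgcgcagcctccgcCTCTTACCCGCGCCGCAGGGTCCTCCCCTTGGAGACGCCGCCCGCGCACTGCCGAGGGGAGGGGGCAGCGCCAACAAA
Col4a2: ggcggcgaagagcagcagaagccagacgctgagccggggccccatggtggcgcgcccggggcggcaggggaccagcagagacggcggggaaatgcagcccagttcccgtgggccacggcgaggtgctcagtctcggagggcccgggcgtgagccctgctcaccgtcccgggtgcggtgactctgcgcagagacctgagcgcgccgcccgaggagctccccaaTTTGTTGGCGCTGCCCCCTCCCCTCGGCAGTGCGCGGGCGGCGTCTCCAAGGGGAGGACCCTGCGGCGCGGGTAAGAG

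The windows were searched on both strands for the letters GGGCGG (a GC box), CCAAT and TATAAA, none of which contains another. GGGCGG was found 3 times in the Col4a2 window and once in the Col4a1 window, and 1 match lies in the part that they share. It was found in 5 of the 7 windows (4 matches in that of Lama5, the most), against 35.7% of all 32851 windows in the table. CCAAT was present in 4 of the 7 windows, against 37.4% of all windows. TATAAA was in 0 of the 7, against 13.6%. A match is a description of these letters and not a binding site.

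The array of wildtype pool 2 had 48627 probes well above background in Cy5, while the other 7 had 28150 to 33982. Without that array, differences of the 9 members kept their sign except for Lamb1 (-0.06). Col4a4 had no value on that array at its brightest probe, so its difference could not change. In Cy5, mutant pool 1 lay farthest from the other arrays. The median absolute deviation between it and each other array was 0.44 to 0.59, over 5798 probes of middle brightness. No other pair of arrays exceeded 0.28. Of the targeted genes, Hdac1 read 0.20, 0.14 and 0.15 in wildtype and -0.07, -0.14 and -0.20 in mutant samples, and all mutant samples were lower. Hdac1 differed by -0.30 ± 0.09 (SE, adjusted p = 0.477) at its brightest probe and by -0.57 and -0.40 at its other probes. Hdac2 read -0.07, -0.18 and -0.21 in wildtype and -0.54, -0.04 and -0.28 in mutant samples, which overlap, and differed by -0.13 ± 0.14 (SE, adjusted p = 0.84). The position of these probes within the genes, inside or outside the deleted part, was not analysed here. All 12 nephron progenitor markers were well above background on all 8 arrays, Six2 among them, and their summed signal ranged from 0.09 to 0.12 in wildtype and from -0.50 to -0.29 in mutant samples. The median of the markers overlapped, at -0.03, 0.11 and -0.06 in wildtype and -0.12, 0.01 and -0.44 in mutant samples. Of the markers, 9 had a lower and 3 a higher mutant mean. Six2 differed by -0.13 ± 0.14 (SE), with overlapping groups. Of that list 1 marker passed in limma (Cited1, with a difference of -2.72).

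No member passed the test between mutant and wildtype samples. In limma, 0 of 9 members had an adjusted p under 0.05, either without or with a replicate block for the pool number. Over all genes 0.0353% passed without the block and 0.15% with it. Adjusted p-values of the members lay between 0.754 and 0.938, and between 0.38 and 0.82 with the block. At an unadjusted p under 0.05 there were 0 members without the block, where 7.23% of all genes passed, and 1 with it (Col4a1), where 12.6% did. The median log2 difference of the 9 members, mutant minus wildtype, was -0.10, beside 0.0016 for all genes tested. The widest 95% intervals reached 1.82-fold higher (Lama5) and 1.83-fold lower (Col4a1), so larger changes than these lie outside the intervals of this test.

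**Figure D1:**
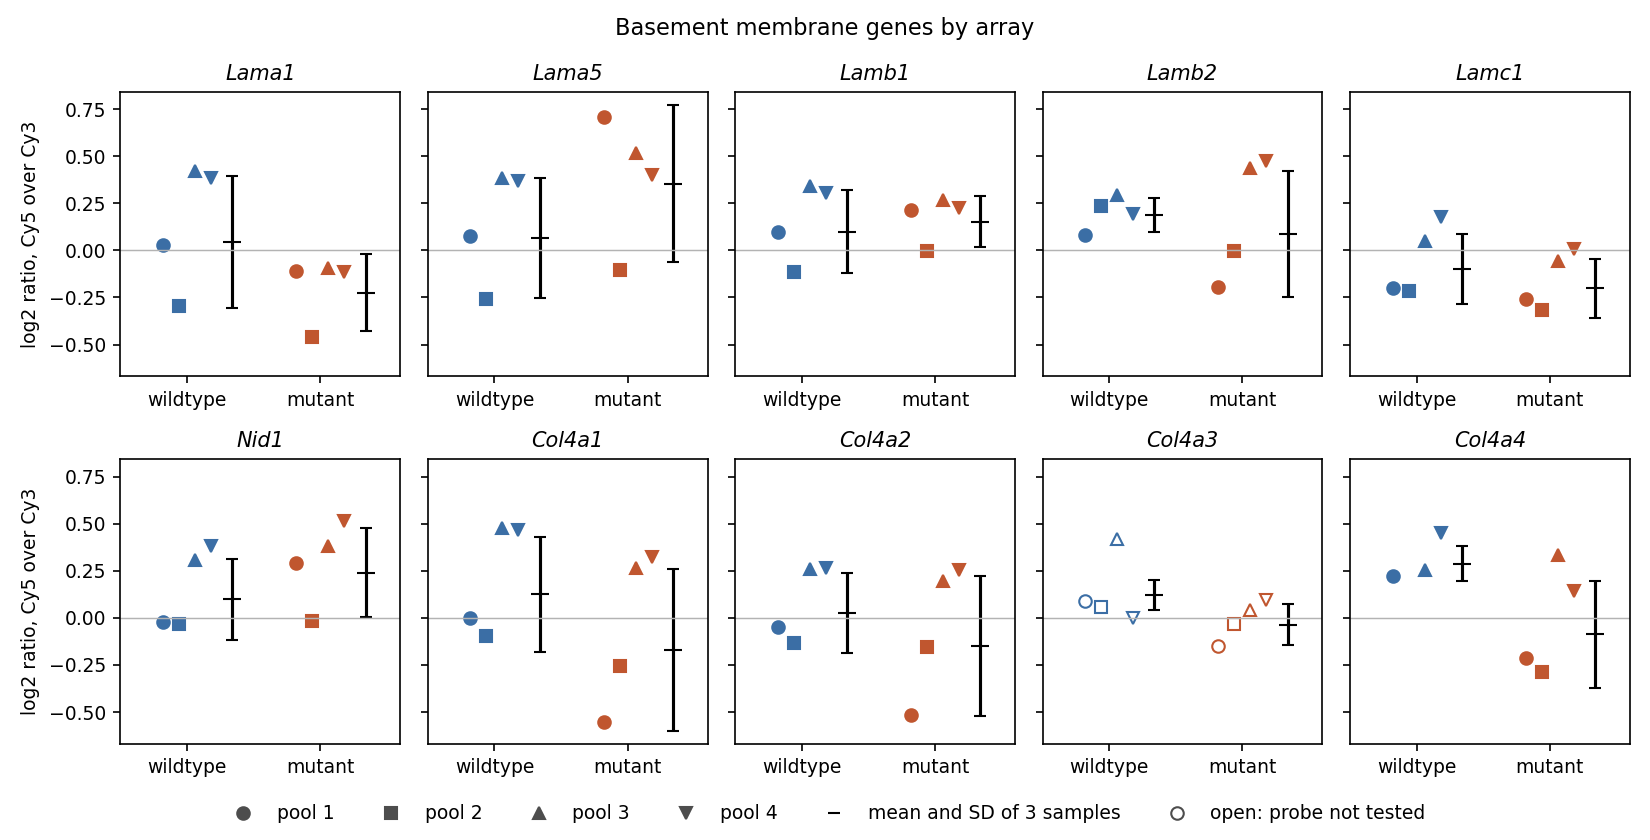
Log2 ratio of Cy5 over Cy3 (y axis) of the brightest probe of each gene on the 4 wildtype (blue) and 4 mutant (orange) arrays, with pools as marker shapes. Black bars are the mean and SD of 3 samples per group (2 wildtype samples for Col4a4), and open symbols mark Col4a3, whose probe was not tested. For all 9 genes tested, the group ranges overlap or, for Col4a4, 1 wildtype value is missing.

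The laminin alpha chains had mutant means on opposite sides of the wildtype means, neither past the test. Lama1, the alpha chain of early epithelia, read 0.03, -0.30 and 0.40 in wildtype pools 1, 2 and the mean of 3 and 4, and -0.11, -0.46 and -0.10 in the mutant samples. The mutant value was lower in each of the 3 pool pairs, while the groups overlapped because wildtype pool 2 was low. The difference was -0.27 ± 0.19 (SE, adjusted p = 0.819), or 83.0% of the wildtype level with a 95% interval from 60.3% to 114%. It was -0.44 without wildtype pool 2, -0.15 without mutant pool 2 and -0.09 without wildtype pools 3 and 4. Lama5, the alpha chain of mature basement membranes, read 0.08, -0.26 and 0.38 in wildtype and 0.71, -0.11 and 0.46 in mutant samples. It was higher in the mutant sample of each pair, most in pool 1 (0.64) and least in pools 3 and 4 (0.08), and again the groups overlapped. The difference was 0.29 ± 0.24 (SE, adjusted p = 0.82), or 122% of wildtype (82.1% to 182%). It was 0.11 without mutant pool 1, 0.13 without wildtype pool 2, 0.45 without wildtype pools 3 and 4, and 0.52 without mutant pool 2.

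The beta and gamma chains differed less. Lamb1, the beta chain that pairs with either alpha chain during development, had group means of 0.10 ± 0.22 and 0.15 ± 0.14 (SD, n = 3), a difference of 0.05 ± 0.14 (SE), or -0.12 with centring on spike-ins. Lamb2, the beta chain of the mature glomerular basement membrane, was close to even in wildtype samples (0.19 ± 0.09) and spread in mutant samples (0.09 ± 0.33, SD, n = 3). Its mutant samples lay on both sides of the wildtype ones, at -0.19 in pool 1 and 0.46 in pools 3 and 4. Lamc1, the gamma chain common to most laminins, differed by -0.10 ± 0.13 (SE), with pairs between -0.14 and -0.06, and by 0.01 when arrays were centred on their median without loess. In that setting the median of all genes was 0.07, so relative to it Lamc1 kept a lower mutant mean. Nid1, which bridges laminin and collagen IV, was higher in each pair, by 0.01 to 0.31, with a difference of 0.14 ± 0.16 (SE) at its brightest probe, or -0.03 with centring on spike-ins. That centring shifts all genes on an array by the same amount and moved the median of all genes to -0.17. Lamb1 and Nid1 stay above that median by construction, so their position relative to it is no separate check. The other Nid1 probes, well above background on all 8 arrays but far dimmer, gave 0.03 ± 0.17 and -0.04 ± 0.10 (SE).

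The common collagen IV chains had lower mutant means. Col4a1, whose product joins with that of Col4a2 in nearly all basement membranes, was measured on 10 spots of 1 probe. It read -0.00066, -0.10 and 0.47 in wildtype and -0.55, -0.25 and 0.29 in mutant samples, lower in the mutant of each pair and by the most in pool 1 (-0.55). The difference was -0.30 ± 0.24 (SE, adjusted p = 0.82, and 0.38 with the block), or 81.4% of wildtype with a 95% interval from 54.6% to 121%. Col4a2 read -0.05, -0.14 and 0.26 in wildtype and -0.52, -0.16 and 0.23 in mutant samples. Its pairs of pool 2 and of pools 3 and 4 were nearly equal (-0.02 and -0.04), and the difference of -0.18 ± 0.20 (SE, adjusted p = 0.848) rested on pool 1 (-0.47). Without mutant pool 1 the differences were -0.11 for Col4a1 and 0.0089 for Col4a2. Without wildtype pools 3 and 4 they were -0.12 and -0.06, and without mutant pools 3 and 4 they were -0.53 and -0.36.

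The chains of the mature glomerular collagen were dim. Col4a4 was measured at its brightest probe on 7 arrays, since the spot of wildtype pool 2 was marked as an outlier by the scanner software. It read 0.22 in wildtype pool 1 and 0.35 in pools 3 and 4, against -0.21, -0.29 and 0.24 in the mutant samples. That left 2 wildtype samples for a difference of -0.37 ± 0.18 (SE, adjusted p = 0.754), with the mutant value lower in both pairs that could be formed. A dimmer probe of the same gene, read on all 8 arrays, gave 0.03 ± 0.13 (SE), so it did not repeat the lower mutant mean. The 2 differences rest on unlike samples, since wildtype pool 2 is missing at the brighter probe. At the dimmer one the wildtype arrays of pools 1 to 4 read 0.08, -0.30, -0.15 and -0.16. The mutant arrays read -0.11, -0.22, 0.04 and 0.07. Whether the missing value accounts for the gap between the probes was not tested. The last Col4a4 probe was well above background on 1 of 4 wildtype and 0 of 4 mutant arrays and was not tested.

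Col4a3, whose product needs the alpha 4 and alpha 5 chains to assemble, was near background. Its probe was well above background on 2 of 4 wildtype and 0 of 4 mutant arrays, below the minimum of 3 arrays in a group, and was not tested. Its ratios were 0.09, 0.06, 0.42 and 0.0014 on the wildtype arrays of pools 1 to 4 and -0.15, -0.03, 0.04 and 0.10 on the mutant arrays. The Cy5 level, quantile-scaled between arrays, averaged 6.39 in wildtype samples (6.46 without wildtype pool 2), against a floor of 6.41 in mutant samples. The floor is the mean over mutant samples of the higher of the dimmest well measured probe and the probe itself. No fold is therefore given for Col4a3.

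**Figure D2:**
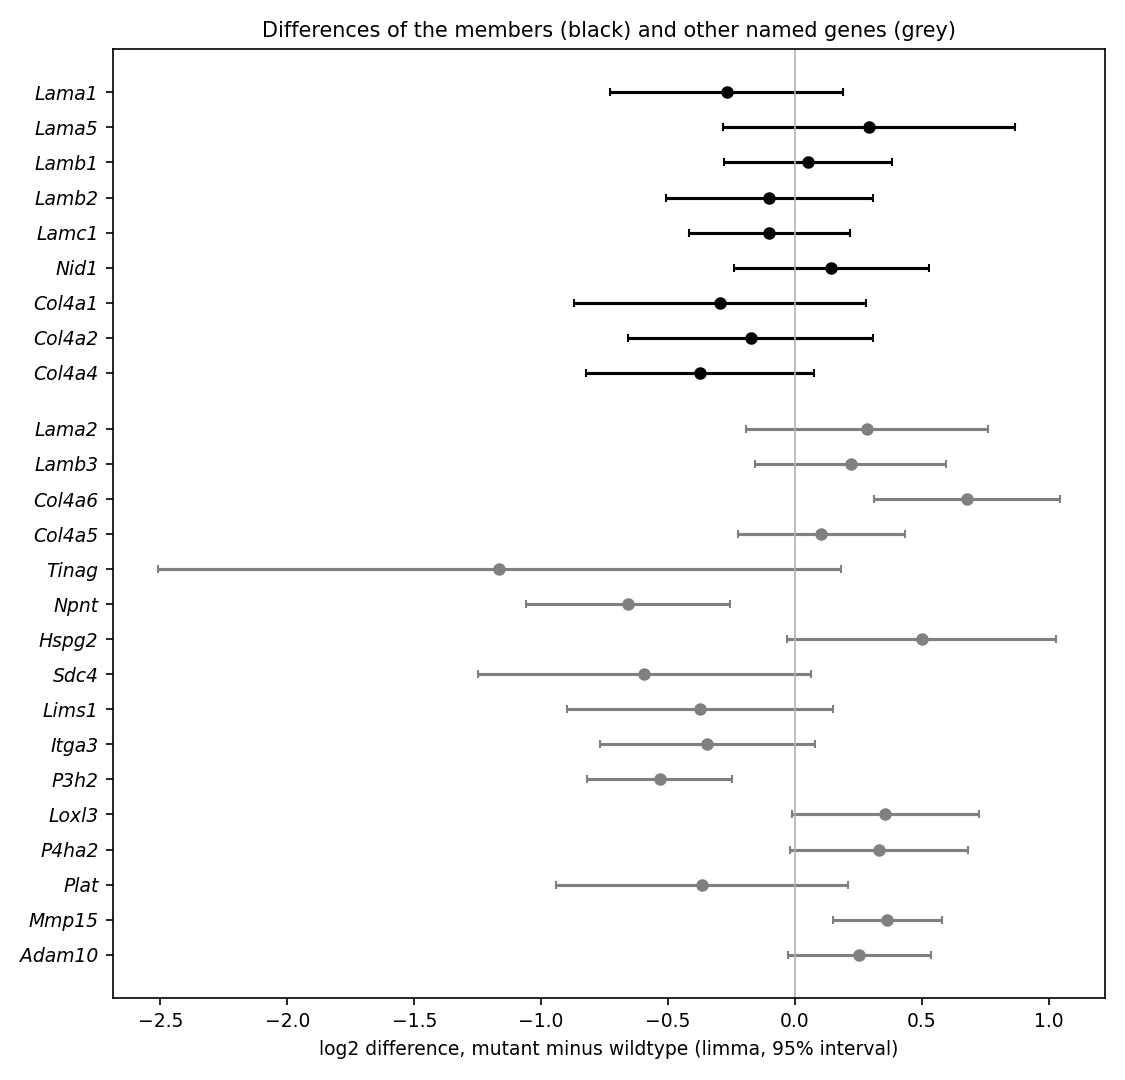
Log2 difference, mutant minus wildtype (x axis), with its 95% interval in limma for the 9 members tested (black) and other named genes of the basement membrane lists (grey). The intervals of all 9 members include 0, while those of Col4a6, Npnt, P3h2 and Mmp15 do not, and none passed after adjustment over 22694 genes.

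Pair by pair, 4 of 8 members with all 3 pairs were lower in the mutant of every pair (Lama1, Lamc1, Col4a1 and Col4a2), where 17.4% of all genes were. The mutant value was higher in every pair for 2 of the 8 (Lama5 and Nid1), where 23% of all genes were. All 3 mutant samples lay beyond all 3 wildtype samples for 0 of the 8, against 5.95% of genes with lower and 8.71% with higher mutant samples. At the level of probes, 0 of 12 member probes kept were called without the block (0.0263% of all 30364 probes) or with it (0.115%).

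Ratios of 2 members within a sample cancel what both share. They were formed after the values of the single genes had been seen, so they are a description without a test. Among 28 pairs of members with values in all 6 samples, the ratio did not overlap between the groups for 7 (25%), where 15.2% of all pairs of genes did not. Lama5 over Lama1 read 0.05, 0.04 and -0.03 in wildtype and 0.82, 0.35 and 0.56 in mutant samples. The wildtype samples were thus almost equal and every mutant sample was higher, with means of 0.02 ± 0.04 and 0.58 ± 0.23 (SD, n = 3), a log2 difference of 0.56. Of all pairs of genes, 3.95% did not overlap and differed by at least as much. This pair was picked from the 28, so that share is not a p-value.

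The other pairs involve the same few genes, and those with Nid1 use only its brightest probe. Its dimmer probes differed between the groups by 0.03 and -0.04, and ratios with them were not formed. Lamb1 over Lama1 differed by 0.32 and Nid1 over Lama1 by 0.41, both higher in the mutants. Nid1 over Lamc1 read 0.18, 0.18 and 0.23 in wildtype and 0.55, 0.30 and 0.47 in mutant samples. The collagen chains were lower relative to nidogen, with Col4a1 over Nid1 at 0.02, -0.07 and 0.13 in wildtype and -0.84, -0.24 and -0.16 in mutant samples. Col4a2 over Nid1 differed by -0.32 and Col4a1 over Lama5 by -0.59. In each ratio with collagen, mutant pool 1 was far from the other mutant samples, and without it Col4a1 over Lama5 differed by -0.22, Col4a1 over Nid1 by -0.22 and Col4a2 over Nid1 by -0.11.

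**Figure D3:**
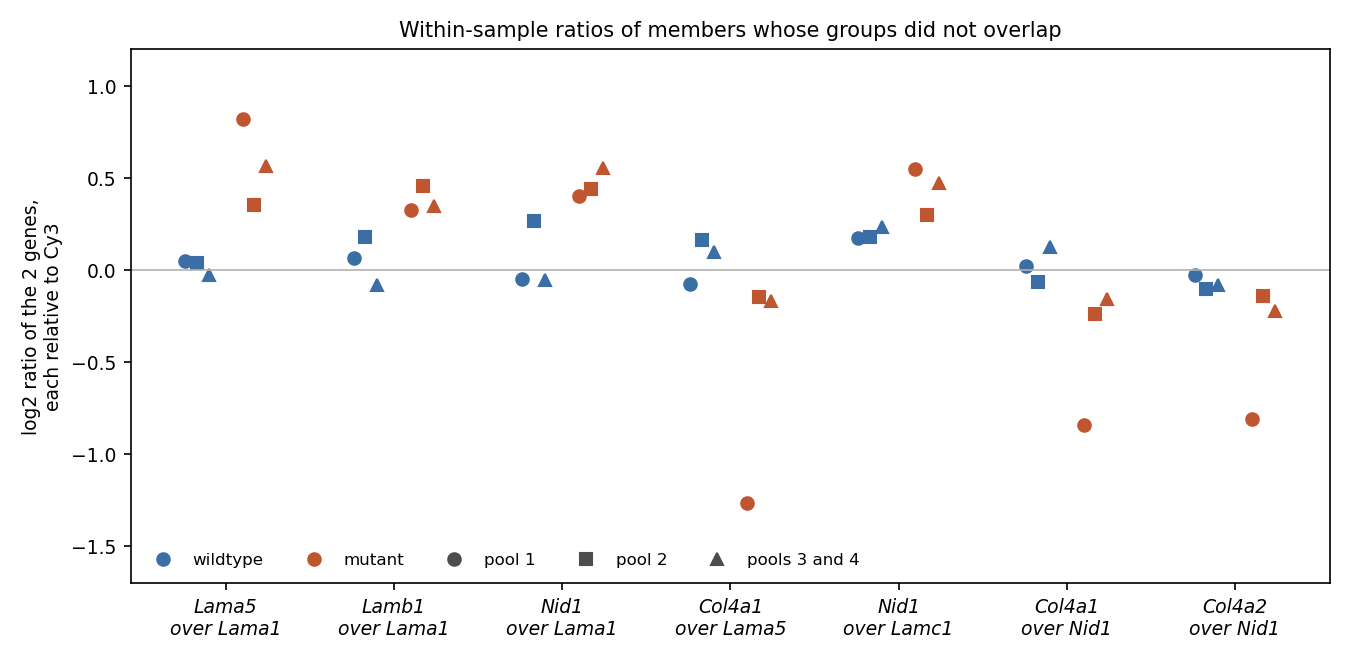
Log2 ratio of 2 members, each relative to Cy3 (y axis), in 3 wildtype (blue) and 3 mutant (orange) samples for the 7 pairs whose groups did not overlap. Lama5 over Lama1 lies between -0.03 and 0.05 in wildtype samples and between 0.35 and 0.82 in mutant samples.

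The members also varied from pool to pool. In all 8 members with complete values, the sample of pools 3 and 4 was the highest wildtype sample, where this held for 34.7% of all genes. The same sample was also the highest mutant sample for 7 of the 8 (all but Lama5), against 15.7% of genes. The median ratio of the members was 0.03, -0.13 and 0.35 in the wildtype samples and -0.19, -0.16 and 0.24 in the mutant samples. On the array of wildtype pool 1, a hybridisation of one RNA against itself, members read between -0.20 (Lamc1) and 0.22 (Col4a4).

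Marker sums of cell types also varied from pool to pool, and in 6 of 8 lists the wildtype samples had the order of the members' median, with pool 2 lowest and pools 3 and 4 highest. The exceptions were the nephron progenitor and renal vesicle lists. The summed signal of 11 of 12 podocyte markers, on the log2 scale relative to Cy3, was -0.02, -0.36 and 0.40 in wildtype and -0.68, -0.39 and -0.0086 in mutant samples. The proximal tubule sum (10 of 10 markers) was -0.01, -1.35 and 0.64 in wildtype and -1.18, -2.36 and -0.63 in mutant samples. Of these lists, 10 podocyte and 7 proximal tubule markers were well above background on every array. Podocytes and tubule cells make their own laminin and collagen IV, and the part of such cells in the members' values was not tested. In pooled cells, fewer cells of a type and less RNA per cell cannot be told apart.

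Marker sums of endothelium, stroma and ureteric bud overlapped between the groups but were higher in the mutant sample of all 3 pool pairs. The endothelium sum (13 of 13 markers) ranged from -0.25 to 0.02 in wildtype and from -0.05 to 0.41 in mutant samples, with pair differences of 0.44, 0.20 and 0.16. Of its markers, 10 had a higher and 3 a lower mutant mean. The interstitial stroma sum (12 of 12) ranged from -0.01 to 0.20 and from 0.14 to 0.55, with pair differences of 0.40, 0.15 and 0.34, and all 12 markers had a higher mutant mean. The ureteric bud and collecting duct sum (12 of 12) ranged from -0.27 to -0.04 and from -0.21 to 0.30, with pair differences of 0.34, 0.06 and 0.34. Of these markers, 8 had a higher and 4 a lower mutant mean. The macrophage and erythroid sum (8 of 10) ranged from -0.07 to 0.51 and from 0.09 to 0.80, higher in the mutant of 2 of 3 pairs. The renal vesicle sum (10 of 10) ranged from -0.16 to 0.06 in wildtype and from -0.30 to -0.17 in mutant samples, which do not overlap, and was lower in all 3 pairs. Podocyte and proximal tubule sums were also lower in all 3. Apart from the podocyte and proximal tubule lists, each list was well above background on all 8 arrays for all the markers counted here. The part of these lists in the members' values was not tested.

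**Figure D4:**
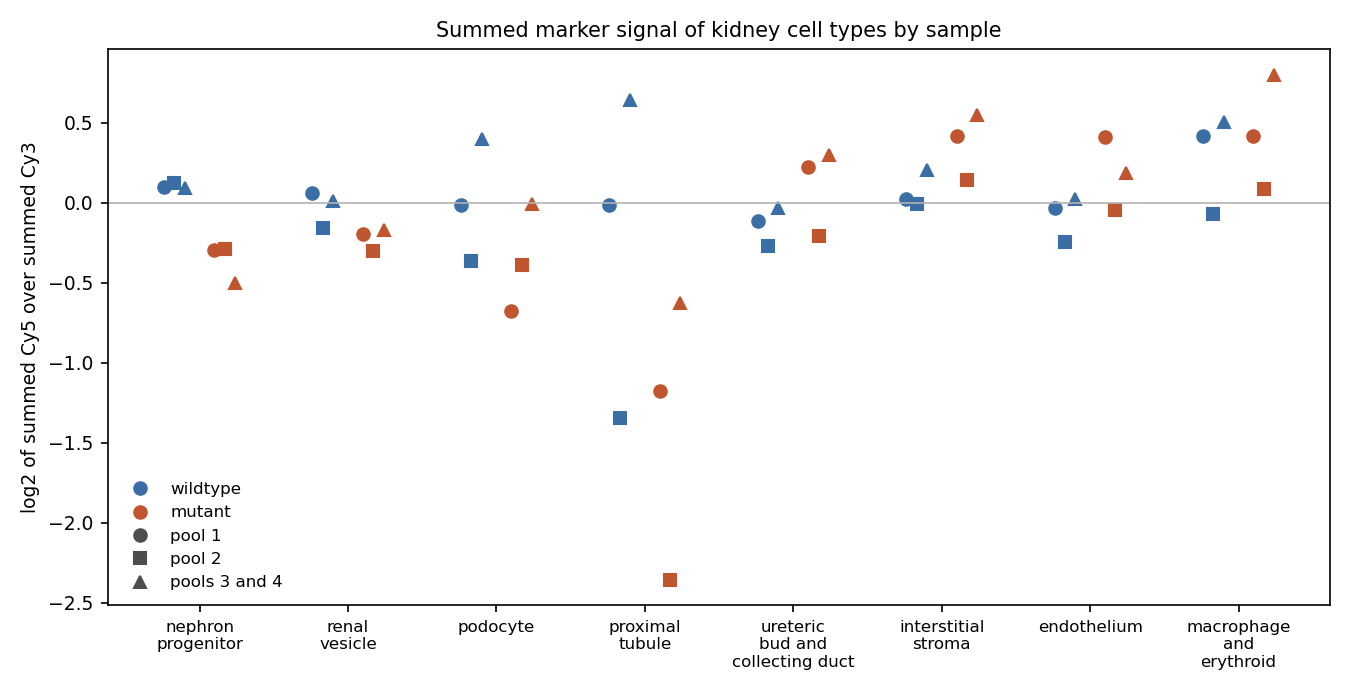
Log2 of the summed Cy5 signal over the summed Cy3 signal of each marker list (y axis) in the 3 wildtype (blue) and 3 mutant (orange) samples. The proximal tubule sum spans -2.36 to 0.64, and pools 3 and 4 are highest among wildtype samples for 6 of the 8 lists.

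Among all genes, the profile of Col4a1 was the only one of a member to span at least 1 log2 unit over the samples (1.03). The nearest profiles, by the root mean square difference of values centred on their mean over 6 samples, were those of the complement protease C1s1 (0.0702), the splicing regulator Mbnl2 (0.08) and the tight junction claudin Cldn1 (0.0811). Col4a2 ranked 9 with 0.0949, the only member among the nearest 10, whereas Lamb2 followed at rank 293 (0.198). Lama5 was the farthest of the members compared (0.476).

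**Figure D5:**
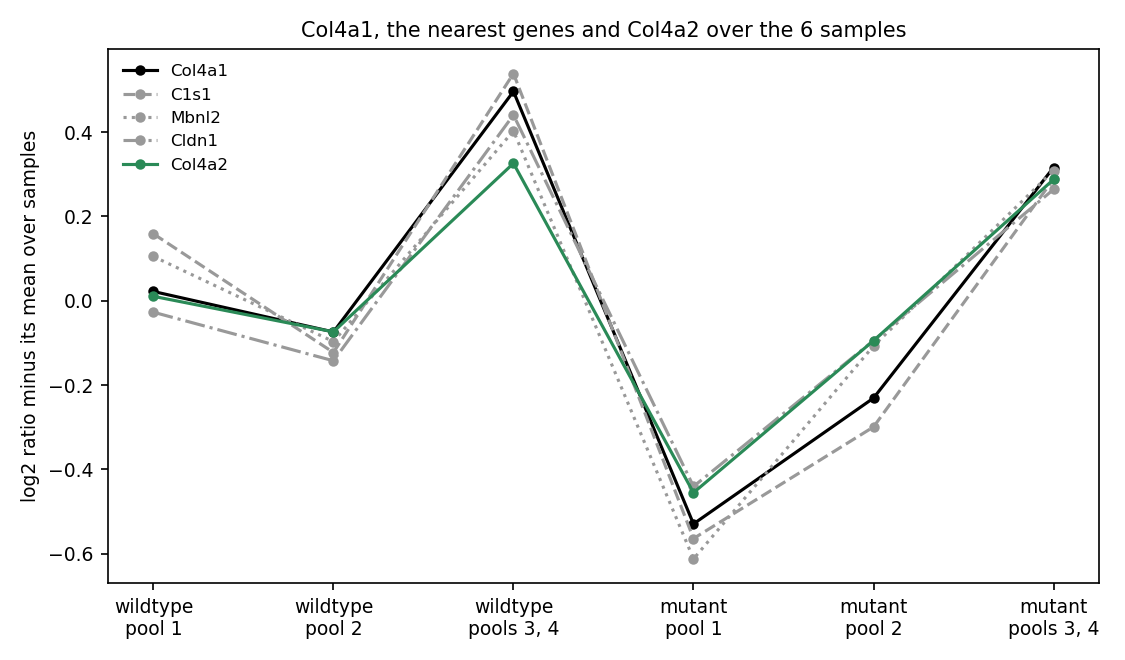
Log2 ratio minus its mean over the samples (y axis) for Col4a1 (black), Col4a2 (green) and the 3 genes nearest to Col4a1 (grey) in the 6 samples. Lines only join the values of a gene. All profiles are lowest in mutant pool 1 and highest in wildtype pools 3 and 4.

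The remaining genes of the basement membrane machinery were taken from 6 lists. Of 88 genes, 86 were tested, and 0 passed in limma without or with the block. At an unadjusted p under 0.05 there were 9 (10.5%) without the block and 20 (23.3%) with it, beside 7.23% and 12.6% of all genes. Their median difference was 0.0081, with 42 lower and 44 higher mutant means.

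Of the other collagen IV chains, Col4a6, which assembles with Col4a5 in smooth muscle and epithelial basement membranes, had the larger difference. It read 0.18, -0.02 and 0.19 in wildtype and 1.10, 0.58 and 0.71 in mutant samples, a difference of 0.68 ± 0.15 (SE, adjusted p = 0.328, and 0.116 with the block). All mutant samples were above all wildtype samples. Col4a5, its neighbour and partner, differed by 0.10 ± 0.14 (SE), and by -0.07 when arrays were centred on spike-ins. None of the other 6 laminin chains passed. Lama2, the alpha chain of muscle and mesenchyme, differed by 0.28 ± 0.20 and Lamb3 by 0.22 ± 0.16 (SE), or by 0.10 and 0.10 without wildtype pool 2.

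Of 21 other basement membrane proteins 0 passed, with 8 lower and 13 higher mutant means. Npnt, the nephronectin gene whose product binds integrin alpha 8 beta 1, differed by -0.66 ± 0.17 (SE, adjusted p = 0.39), lower in all mutant samples. Hspg2, the gene of the proteoglycan perlecan, differed by 0.50 ± 0.22 (SE, adjusted p = 0.73) and by 0.26 without mutant pool 1. Tinag, a tubular basement membrane antigen, differed by -1.16 ± 0.57 (SE, adjusted p = 0.753, and 0.065 with the block). Tinag had a wide spread between wildtype pools (SD 1.03, n = 3) and differed by -0.71 without wildtype pools 3 and 4. The tubule marker sums given above vary over the same pools, and the part of tubule cells in the Tinag values was not tested.

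Of 18 laminin and collagen receptor genes 0 passed and 14 had a lower mutant mean. Their median difference was -0.09, beside 0.0016 for all genes tested, and the direction of the list as a set was not tested. Sdc4, a syndecan, differed by -0.59 ± 0.28, Lims1, an adaptor of integrin-linked kinase, by -0.37 ± 0.22, and Itga3, an integrin subunit that binds laminin with the alpha 5 chain, by -0.34 ± 0.18 (SE). Without mutant pool 1, Lims1 differed by -0.11 and Itga3 by -0.18. Sdc4 differed by -0.39 without mutant pool 2 and by -0.37 without wildtype pools 3 and 4. Among 23 genes of collagen folding, crosslinking and secretion 0 passed. P3h2, a prolyl 3-hydroxylase that modifies collagen IV, differed by -0.53 ± 0.12 (SE, adjusted p = 0.328), with all mutant samples below all wildtype samples. Loxl3, a lysyl oxidase, differed by 0.35 ± 0.16 and P4ha2, a prolyl 4-hydroxylase subunit, by 0.33 ± 0.15 (SE). Loxl3 differed by 0.19 without wildtype pool 2 and P4ha2 by 0.22 without mutant pool 1. Of 16 proteases and inhibitors tested 0 passed. Mmp15, a membrane-type matrix metalloproteinase, read 0.04, -0.09 and -0.04 in wildtype and 0.30, 0.31 and 0.39 in mutant samples, a difference of 0.36 ± 0.09 (SE, adjusted p = 0.357). Plat, tissue plasminogen activator, differed by -0.37 ± 0.24 and Adam10 by 0.25 ± 0.12 (SE), or by -0.07 and 0.17 without mutant pool 1.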

How the data were processed

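RNA of 8 pools of sorted cells was hybridised to 2-colour Agilent arrays. The deposited scanner files hold spot and background intensity values. Per the file headers, the authors extracted them with Agilent software (Feature Extraction 10.7.3.1). The deposited value table holds log10 ratios of Cy5 over Cy3, which matched those of the scanner files (r at least 0.999999).

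Median spot signals were background-corrected by normexp with an offset of 50 and normalized within arrays by loess (limma 3.58.1, R 4.3.3), with control spots and outliers at weight 0. Probes had to be well above background, in the Cy5 channel, on 3 or more of 4 arrays of either group (30364 of 55681). The probe with the highest mean Cy5 level stood for its gene. Pools 3 and 4 differed by a median absolute deviation of 0.0838 (wildtype) and 0.0896 (mutant), within the 0.0674 to 0.116 between arrays of the one Cy3 RNA (wildtype pool 2 left out, 5798 probes of middle brightness), and were averaged. The mutant and wildtype groups were tested two-sided in limma (lmFit, eBayes), with Benjamini-Hochberg adjustment over all genes and a threshold of 0.05. With 3 samples a side, the smallest p of an exact permutation test is 0.1. Deviations of same-numbered pools correlated (r = 0.496, 0.543 and 0.527 over 22360 genes), so pool number was added as a replicate block in a second fit. Mutant and wildtype arrays lie on separate rows of 1 slide, so slide row and genotype cannot be told apart. The sample titles give a pool number and do not say whether same-numbered pools were matched. The fit was tested on simulated data. Array signals give no molecule counts, and the number of arrays limits precision.

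The members and all gene lists were chosen with earlier results of these data known. Named genes are the members, the 3 genes with the largest difference in each list among those well above background on all 8 arrays, any list gene called, the 3 profiles nearest to a member spanning 1 log2 unit, and the targeted genes. Not every gene this rule names is reported here. Gene names came from a RefSeq table of GRCm38.p6. The array annotation refers to another build, so no gene coordinates are given.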

Additional observations from a re-analysis of the deposited data

How the results depend on the processing

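Over 28 alternatives, 0 members and 0 member probes were called, and the median difference of the members ranged from -0.29 to 0.03. The replicate block changed no call of a member. Of the other basement membrane genes 2 were called with the 8 arrays as separate samples, 7 with the block added to that, 7 with array weights (whose estimation did not converge) and 1 in the blocked fit without the pair of pool 2. Over all genes, 8 were called (4 higher and 4 lower), against 34 with the replicate block, 257 with 8 arrays as separate samples, 744 with those and the block, 825 with array weights, 5 with arrays centred on spike-ins (1 higher and 4 lower) and 5 with a trended, robust variance. In the blocked fit 0 were called without the pair of pool 1, 46 without pool 2 and 0 without pools 3 and 4, where 3176, 2316 and 1493 had an unadjusted p under 0.05. Leaving out single arrays or the joint sample gave 1 to 10.

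Signs of uncalled differences turned in few settings. With array weights these were Col4a2 (0.066), Lamb2 (0.21), Cldn1 (0.0025) and Mbnl2 (0.012). With spike-in centring, which moved the median of all genes to -0.17, these were Lamb1 (-0.12), Nid1 (-0.030) and Col4a5 (-0.069). Lamc1 turned with median centring (0.012), where the median of all genes was 0.073. That setting, with 7 higher and 5 lower calls, moved the split. Col4a5 turned in the blocked fit without pool 2 (-0.028), and Hdac2 (0.036) in that without pool 1. Leaving out arrays or the joint sample gave ranges of -0.36 to 0.0089 for Col4a2, -0.057 to 0.16 for Lamb1, -0.29 to 0.040 for Lamb2, -0.19 to 0.0057 for Lamc1, -0.44 to -0.09 for Lama1, 0.11 to 0.52 for Lama5, 0.04 to 0.27 for Nid1, -0.53 to -0.11 for Col4a1, -0.54 to -0.27 for Col4a4, 0.0029 to 0.20 for Col4a5 and -0.25 to -0.0043 for Hdac2. Lama5 over Lama1 differed by 0.44 to 0.68 over the alternatives, which for the ratios were added after the data were seen. Some alternatives, such as spike-in centring, the replicate block and the trended variance, cannot change this ratio and so do not check it.

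The arrays limit what can be seen: the standard errors of the members, 0.13 to 0.24, bound the differences that could be detected, and Col4a3 and 1 probe of Col4a4 lay at background.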
